A study of Rattus norvegicus with 6 samples.

Results

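Of the 14145 circRNA probes on the array, 3 lay well above background on all 3 arrays of monocrotaline-treated rat lungs and on none of the 3 arrays of saline-treated lungs. They are ASCRPR000848, ASCRPR000882 and ASCRPR006482. They were chosen by the scanner software's own yes-or-no mark for a spot well above background, with the further condition that no array marked their spot as non-uniform or as a population outlier. The mark was read from the same signals in the same contrast, so every difference of these probes between the groups is given as a description and without a test.

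Circular RNAs (circRNAs) form when the splicing machinery joins the end of an exon back to the start of the same or an earlier exon, which leaves a closed ring without free ends. Rings resist exonucleases and tend to persist in cells, and some are known to bind microRNAs or proteins. In the lung they have been studied in remodelling of the vessel wall, the process that narrows small pulmonary arteries in pulmonary arterial hypertension. Monocrotaline (MCT), a plant alkaloid, is turned by the liver into a reactive form that damages the endothelium of the lung, and rats given it are widely used to model the disease.

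The study profiled circRNAs in lungs of male rats, labelled as 6 weeks old, that received 1 intraperitoneal dose of MCT (60 mg per kg) or of saline. Lungs were perfused with PBS and collected 28 days later. Each group holds 3 samples with 1 array per sample, and the total RNA was digested with RNase R, which degrades linear RNA, before labelling. The strain is not given in the sources used here, nor is it stated that each sample is a separate animal. Which genes the rings derive from is not paired with the probes in the files or reference tables used here, and these hold no probe sequence, so the 3 circRNAs go by their array names and carry no known role.

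The arrays differed in overall brightness. The 75th percentile of the processed signal, the background-subtracted brightness in fluorescence units, was 75.6 to 94.5 units on the saline arrays. MCT 1 had 41.4 units, MCT 2 had 95.2 and MCT 3 had 32.3. Of all circRNAs, the share marked well above background was 80.3% to 84.5% on the saline arrays and 55.1% to 78.7% on the MCT arrays. Saline 1 to 3 and MCT 1 shared 1 slide, and MCT 2 and MCT 3 lay on another.

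The members make up 0.0212% of all circRNA probes, and 0.0408% of the 7344 well above background on all 3 MCT arrays. The reverse pattern, marked on all saline arrays and no MCT array, was found for 257 probes or 1.82%. That count was made without the condition on non-uniform and outlier spots, and the members without this condition also number 3. Every MCT array marked fewer circRNAs than any saline array, and the part of this in these counts was not tested. Of the 7344, 7325 were also well above background on all 3 saline arrays. The members thus belong to a small remainder that was marked in the MCT lungs but not throughout the saline lungs.

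ASCRPR000848 gave processed signals of 4.69, 6.03 and 2.22 units on saline arrays 1 to 3 and of 9.36, 11.8 and 10.7 units on MCT arrays 1 to 3. The groups did not overlap, and the lowest MCT value lay 3.32 units above the highest saline value. The software's own error of these signals was 1.45 to 1.62 units in saline and 1.99 to 2.22 units in MCT lungs. With 1 such error taken off the lowest MCT signal (7.36 units) and added to the highest saline signal (7.48 units), the groups met.

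ASCRPR000882 was the brightest of the 3 in MCT lungs, at 16.4, 13.6 and 16.8 units, against 7.62, 4.22 and 6.55 units in saline lungs. All MCT values were above all saline values, with a gap of 5.99 units. The lowest MCT signal less its error (11.3 units) stayed above the highest saline signal plus its error (9.33 units). This probe is a near miss of the detection mark in saline: on saline 1 its 7.62 units lay just under 7.66 units, the lowest signal that the mark accepted on that array.

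ASCRPR006482 was the most even of the 3, with 9.42, 9.99 and 9.59 units on the MCT arrays and 5.03, 4.98 and 3.25 units on the saline arrays. The groups were 4.39 units apart at their nearest values. The lowest MCT signal less its error (7.43 units) was above the highest saline signal plus its error (6.64 units). Without any scaling between arrays, all MCT values lay above all saline values for 3 of 3 members. This held for 1.46% of 11272 circRNAs that had a value on each array and carried the well above background mark on 3 or more of the 6. The choice of members all but fixes this order, and nothing is read from it.

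**Figure D1:**
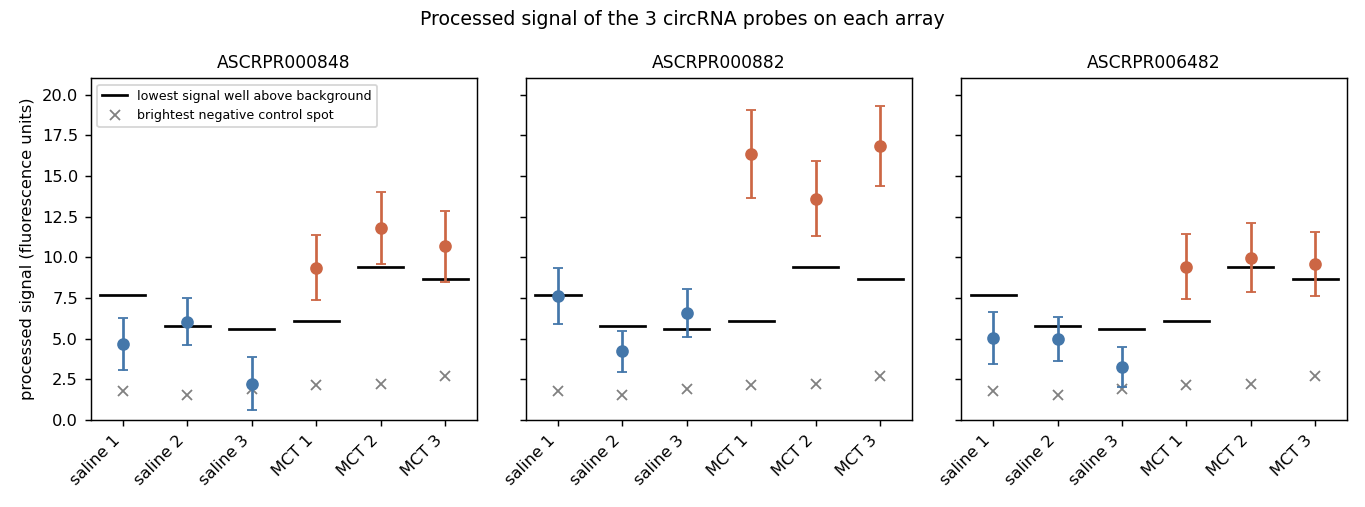
Processed signal in fluorescence units (y axis) of the 3 circRNA probes on each of the 6 arrays (x axis; saline blue, MCT orange); bars are the software's error of that 1 spot, black lines the lowest signal marked well above background on that array, and crosses the brightest negative control spot. All MCT points lie above all saline points, at 9.36 to 16.8 against 2.22 to 7.62 units, and every point lies above the cross of its array.

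The name "detected only in MCT lungs" holds for this mark alone. All 3 probes also carried the software's laxer mark, a positive signal significantly above background, on all 6 arrays. By that mark they were seen in the saline lungs too, as were 77.5% of all circRNA probes on every array. The pattern of the laxer mark on all MCT arrays and no saline array was met by 1 probe of 14145 (0.00707%), and it was none of the 3.

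Negative control spots, which carry a sequence designed to match no transcript, give the signal of empty hybridisation on the same arrays. Their brightest unmarked spot reached 1.75, 1.52 and 1.90 units on saline arrays 1 to 3, over 76 or 77 spots each, and 2.17, 2.24 and 2.70 units on MCT arrays 1 to 3. None of them was marked well above background on any array, while 0 to 2 spots per array carried the laxer mark. The negative controls were themselves higher on every MCT array than on any saline array, by their brightest spot and by their median. The median was 1.56, 1.26 and 1.21 units on saline arrays 1 to 3 and 1.69, 1.91 and 1.81 units on MCT arrays 1 to 3. The part of this shift in the members' differences was not tested. Every member exceeded the brightest negative control on every array. In saline lungs ASCRPR000848 was 1.17-fold to 3.98-fold above it, ASCRPR006482 1.72-fold to 3.29-fold and ASCRPR000882 2.78-fold to 4.36-fold. The smallest of these margins belonged to ASCRPR000848 on saline 3, where its signal was 1.37 times its own error.

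The limit of detection was higher on slide 2. The lowest signal marked well above background was 7.66, 5.79 and 5.57 units on saline arrays 1 to 3, 6.10 on the first MCT array, 9.40 on the second and 8.67 on the third. The mark is not a fixed line in processed units, since spots without it reached 8.23 units on saline 3 and 10.6 units on MCT 1. In MCT lungs ASCRPR006482 cleared the limit by 1.06-fold on MCT 2 and 1.11-fold on MCT 3. ASCRPR000848 cleared it by 1.25-fold and 1.23-fold on these arrays, and ASCRPR000882 by 1.45-fold and 1.94-fold. On MCT 1, the array that shares the saline slide, the margins were 1.53-fold for ASCRPR000848, 1.55-fold for ASCRPR006482 and 2.68-fold for ASCRPR000882. There ASCRPR000848 (9.36 units) and ASCRPR006482 (9.42 units) still lay below the brightest unmarked spot, at 10.6 units. In saline lungs 2 of the 9 values lay above the lowest marked signal of their array without being marked, namely ASCRPR000848 on saline 2 (1.04-fold) and ASCRPR000882 on saline 3 (1.18-fold).

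Among the circRNAs well above background on all 3 MCT arrays the members were dim, which the rule favours. Among all circRNAs, marked or not, they stood at percentile 22.3 to 60.6 on the MCT arrays. Over the 7336 circRNAs well above background and free of spot marks on all 3 MCT arrays, the median of the geometric mean signal was 47.6 units. Of these, 1 was dimmer than ASCRPR006482, 12 were dimmer than ASCRPR000848 and 314 (4.28%) were dimmer than ASCRPR000882.

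Before the software's correction the ratio between the groups was smaller. The spot median still holds the background in both groups, which lowers any ratio. The median brightness of the ASCRPR000848 spot was 32, 33 and 26 units on saline arrays 1 to 3 and 37, 38 and 36 units on MCT arrays 1 to 3, and the ratio of the group means was 1.22-fold. For ASCRPR000882 the values were 36, 29 and 30 against 38, 40 and 43 units, or 1.27-fold. For ASCRPR006482 they were 32, 32 and 29 against 33, 34 and 36 units, or 1.11-fold, with 1 unit between the groups. By this measure too all MCT values lay above all saline values for 3 of 3 members, and for 1.16% of the 11280 circRNAs tested. The ratio of mean processed signals was larger for the same spots, at 2.46-fold, 2.54-fold and 2.18-fold in the same order.

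The local surround of these spots was brighter on slide 2, at 18 to 22 units around the members on MCT 2 and MCT 3 against 14 to 18 units on the 4 arrays of slide 1. With the surround taken off the spot median, ASCRPR000848 stood at 15, 16 and 9 units in saline and 22, 20 and 18 units in MCT lungs. ASCRPR000882 stood at 18.5, 14 and 12.5 units against 22, 19 and 21 units, so that the groups were 0.5 units apart. ASCRPR006482 stood at 16, 14 and 13 units against 19, 15 and 14 units, and here the groups overlapped: MCT 2 and MCT 3 lay below saline 1. By this measure the MCT values were all above the saline values for 2 of 3 members, and for 1.01% of all those tested. The part of the surround in the differences was not tested.

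**Figure D2:**
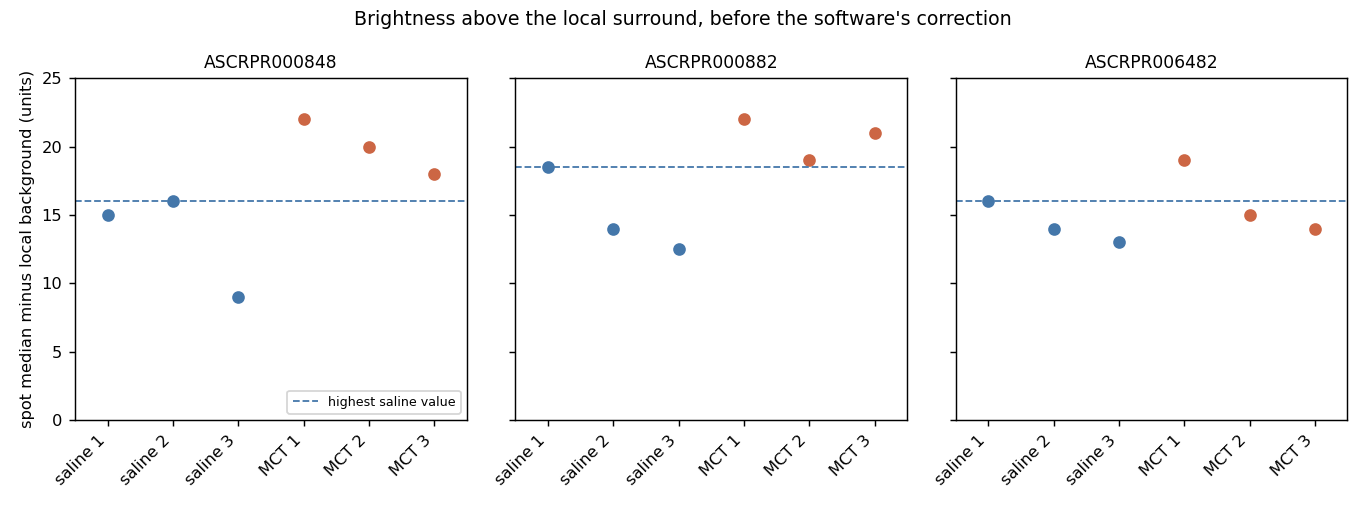
Median brightness of the spot minus that of its local surround in fluorescence units (y axis) for the 3 circRNA probes on each array (x axis; saline blue, MCT orange); the dashed line marks the highest saline value. The MCT points of ASCRPR000848 and ASCRPR000882 lie above the line, while for ASCRPR006482 MCT 2 (15 units) and MCT 3 (14 units) lie below saline 1 (16 units).

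To set arrays of unequal brightness side by side, the log2 processed signals were expressed relative to each array's 75th percentile, so that 0 is that percentile. On this scale ASCRPR000848 had values of -4.32, -3.65 and -5.41 in saline and -2.15, -3.01 and -1.60 in MCT lungs. The saline mean was -4.46 ± 0.89 (SD, n = 3) and the MCT mean was -2.25 ± 0.71 (SD, n = 3), 2.21 higher. ASCRPR000882 had values of -3.62, -4.16 and -3.85 against -1.34, -2.81 and -0.94, and its mean was 2.18 higher in MCT lungs, with -3.88 ± 0.27 (SD, n = 3) against -1.70 ± 0.98 (SD, n = 3). ASCRPR006482 had values of -4.22, -3.92 and -4.86 against -2.13, -3.25 and -1.75, and its mean was 1.95 higher, with -4.33 ± 0.48 (SD, n = 3) against -2.38 ± 0.78 (SD, n = 3). The groups did not overlap for any of the 3, and MCT 2, the bright MCT array, was the lowest MCT array for each. Among all 11272 circRNAs with complete values 7.61% had every MCT value above every saline value on this scale.

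As no saline value was marked well above background, the size of each difference is given against a detection limit. The MCT mean was set against the mean over the saline arrays of the higher of the array's lowest marked signal and the probe's own signal. By that limit, on the scaled signal, ASCRPR000848 was at least 2.89-fold higher in MCT lungs, ASCRPR000882 at least 4.08-fold and ASCRPR006482 at least 2.68-fold. As unmarked signals reached above the lowest marked one, the limit was also set at the highest signal without the mark (7.65, 7.10 and 8.23 units on saline arrays 1 to 3), which gave 2.40-fold, 3.53-fold and 2.20-fold in the same order. Without scaling the values were 1.66-fold, 2.35-fold and 1.54-fold by the first limit and 1.38-fold, 2.03-fold and 1.26-fold by the second. The scaling thus raised each value 1.74-fold, since it lifts probes on the dim arrays MCT 1 and MCT 3. It would lift the negative controls on these arrays in the same way, and no scaled difference was computed for them. With MCT 2 as the only MCT array, about as bright as saline 1 and saline 3, the scaled values were 1.70-fold, 1.89-fold and 1.46-fold by the first limit and 1.42-fold, 1.64-fold and 1.20-fold by the second. All of these hold only for the processed signal at the limit named. Differences in the authors' processed values were smaller than the scaled bounds over all 3 MCT arrays, but not than all of those with MCT 2 alone. Taking MCT 1 alone, within slide 1, the scaled log2 differences were 2.31, 2.54 and 2.20, and those of MCT 2 alone were 1.45, 1.07 and 1.08.

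**Figure D3:**
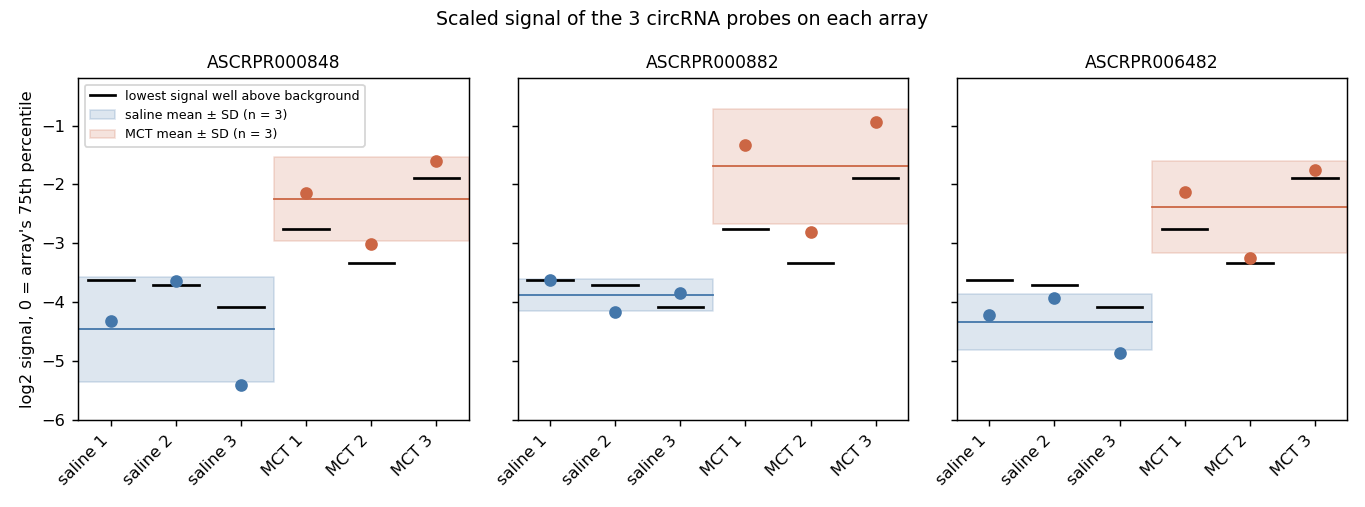
Scaled log2 signal (y axis; 0 is the array's 75th percentile) of the 3 circRNA probes on each array (x axis); shaded bands are the group mean ± SD (n = 3) and black lines the lowest signal marked well above background on that array. The bands of the saline group centre on -4.46, -3.88 and -4.33 and those of the MCT group on -2.25, -1.70 and -2.38, and MCT 2 is the lowest MCT point in each panel.

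Without scaling, the members varied less over the MCT arrays than the median circRNA did. The rule favours this, as it takes dim probes that were marked on every MCT array. The comparison is with circRNAs of any brightness, not with equally dim ones, and nothing is read from it. Over the 7336 circRNAs detected on all 3 MCT arrays, the signal on MCT 2 was 2.76 times that on MCT 3 at the median. For ASCRPR000848 this ratio was 1.10, for ASCRPR006482 1.04 and for ASCRPR000882 0.809. The SD of the unscaled log2 signal over the MCT arrays was 0.17 for ASCRPR000848, 0.17 for ASCRPR000882 and 0.043 for ASCRPR006482, against a median of 0.91. Of the 7336, 3.22%, 3.15% and 0.218% had a smaller one, in this order. After scaling the relation turned: the SDs of the members, 0.71, 0.98 and 0.78, were above the median of 0.49, and 75.4%, 90.4% and 80.5% of these circRNAs had a smaller one. The scaling moved these signals by the brightness of the array, as it did those of every probe.

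The rank within each array does not depend on a scaling factor, but it does depend on how bright the other circRNAs were there. ASCRPR000848 stood at percentile 13.8, 19.4 and 7.15 of the circRNA signals on saline arrays 1 to 3 and at percentile 39.7, 25.2 and 49.5 on MCT arrays 1 to 3. ASCRPR000882 stood at percentile 19.6, 15.3 and 16.6 against 52.9, 28.0 and 60.6. ASCRPR006482 stood at percentile 14.6, 16.9 and 9.40 against 39.8, 22.3 and 47.0. Each member ranked higher on every MCT array than on any saline array, and MCT 2 was the lowest of the MCT arrays for each. Fewer circRNAs carried the well above background mark on MCT 1 (63.1%) and MCT 3 (55.1%) than on MCT 2 (78.7%). On the saline arrays 80.3% to 84.5% carried it. ASCRPR006482 gave 9.42, 9.99 and 9.59 units on MCT arrays 1 to 3, yet its percentile ran from 22.3 to 47.0. The part of array brightness in the higher ranks was not tested.

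The authors' processed table, whose columns share their median and maximum, held smaller differences. In it ASCRPR000848 averaged 5.06 ± 0.18 (SD, n = 3) on the log2 scale in saline lungs against 5.84 ± 0.31 (SD, n = 3) after MCT, which is 1.71-fold higher. ASCRPR000882 averaged 5.14 ± 0.11 (SD, n = 3) against 5.89 ± 0.42 (SD, n = 3), or 1.68-fold, and ASCRPR006482 averaged 5.11 ± 0.036 (SD, n = 3) against 5.60 ± 0.25 (SD, n = 3), or 1.40-fold. All MCT values again lay above all saline values, by at least 0.17 on the log2 scale, as they did for 8% of all tested circRNAs. The background treatment of that table is unknown.

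Just outside the rule lay 3 probes with the mark on every MCT array and on 1 saline array, and 4 that were so on 2 MCT arrays and no saline array. ASCRPR001412 had the largest log2 difference of the first kind, 3.10, which is larger than that of any member. Its signals were 9.03, 5.18 and 1.69 units in saline, with the mark on saline 1, and 19.5, 22.3 and 21.9 units in MCT lungs. ASCRPR009628 followed at 2.07, with 2.97, 4.47 and 6.92 units against 14.3, 9.66 and 9.30 units. Of the second kind, ASCRPR006294 had 4.39, 4.70 and 5.19 units against 13.0, 8.47 and 12.2 units, a log2 difference of 2.01, and missed the mark on MCT 2. ASCRPR009321, which also missed it on MCT 2, had 4.29, 3.40 and 5.71 units against 13.4, 6.44 and 9.40 units, a log2 difference of 1.89. Over all 7 probes just outside the rule the log2 differences ran from 1.63 to 3.10, and those of the 3 members, from 1.95 to 2.21, lay within that range.

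**Figure D4:**
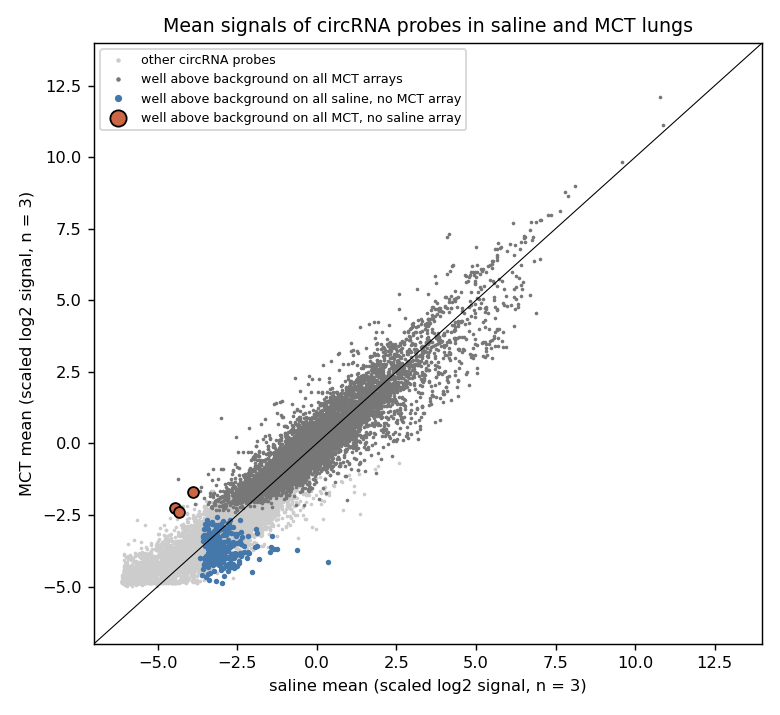
Mean scaled log2 signal in saline (x axis, n = 3) and MCT lungs (y axis, n = 3) of circRNA probes with a value on all 6 arrays; the line marks equal means. The 3 members (orange) lie above the line at the dim edge of the probes detected on all MCT arrays (dark grey), and the probes of the reverse pattern are shown in blue.

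The 3 members resembled each other across the 6 arrays. Pearson's r of their scaled log2 signals was 0.98 for ASCRPR000848 with ASCRPR006482, 0.95 for ASCRPR000882 with ASCRPR006482 and 0.88 for ASCRPR000848 with ASCRPR000882. The points share the arrays, the scaling factor of each array and the rule that set the groups apart. Among 7332 other unmarked circRNAs detected on every MCT array, ASCRPR000848 was most like ASCRPR002713 (r = 0.99), ASCRPR000882 most like ASCRPR004404 (r = 0.998) and ASCRPR006482 most like ASCRPR012330 (r = 0.999), each over 6 arrays. All 3 of these were also well above background on every saline array. So were 7325 of the 7344 circRNAs well above background on every MCT array, and nothing is read from it.

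The matching probes were brighter than the members, as were most circRNAs detected on every MCT array in the MCT lungs. ASCRPR004404 had 111, 68.8 and 96.1 units in saline and 162, 186 and 172 units in MCT lungs, without overlap. ASCRPR012330 had 21.4, 19.2 and 16.9 units against 21.1, 30.3 and 18.9 units, and ASCRPR002713 had 24.0, 23.4 and 22.5 units against 17.5, 33.6 and 15.5 units. The processed signals of these 2 overlapped between the groups. On the unscaled log2 signal, Pearson's r over the 6 arrays was 0.97 for ASCRPR000882 with ASCRPR004404, 0.62 for ASCRPR006482 with ASCRPR012330 and -0.071 for ASCRPR000848 with ASCRPR002713. Their scaled log2 differences were 1.07 and 0.64, and that of ASCRPR004404 was 1.74.

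The 3 spots lie far apart on the array, in rows 1, 106 and 163. Of the 6 spots closest to ASCRPR000882, the brightest was another circRNA that itself had higher values on every MCT array, with 367, 258 and 291 units in saline and 1353, 568 and 1149 units in MCT lungs. The brightest of the 6 closest spots had 533, 227 and 284 against 202, 562 and 68.1 units for ASCRPR000848, and 477, 416 and 539 against 209, 633 and 101 units for ASCRPR006482, so that these overlapped between the groups. A dim spot among the 6 closest to ASCRPR006482 was also higher on every MCT array, at 1.56, 1.29 and 1.20 units in saline and 1.80, 1.91 and 1.75 units in MCT lungs, which is within the range of the negative controls. The part of neighbouring spots in the members' signals was not tested.

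Across all 11280 tested circRNAs, none rose (0%) and 2 fell (0.0177%) in MCT lungs at an adjusted p below 0.05 (limma), and 1302 had an unadjusted p below 0.05. The count changed with the slide and with 1 array: 12 rose and 119 fell when slide was a block, and 94 and 12 without MCT 2. Slide 2 held MCT arrays only, so with the slide as a block the contrast was that of MCT 1 against the saline arrays. Its counts thus hold no replication of the MCT side. The median log2 difference was then 0.00058, the same as on slide 1 alone, against -0.041 in the main fit. The members entered this test through their 3 MCT arrays alone. They were higher in MCT lungs and were not among the calls of the main fit, where none rose. Whether they were among the circRNAs that rose in other settings was not examined. With 3 arrays a group, the number of arrays limits the precision of every value here.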

How the data were processed

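RNase R-treated lung RNA from 3 saline and 3 MCT samples was hybridised to 1-colour circRNA arrays. The scanner files hold deposited intensity values, per the file headers extracted with Agilent Feature Extraction version 11.0.1.1: a background-subtracted processed signal with a small positive floor and no scaling between arrays, its error, and the median of spot and surround. The authors' processed table holds log2 values, and limma is named without a step in the submitters' processing notes. Every column of values was mapped to a sample.

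Controls and outlier-marked spots were dropped, log2 signals were averaged per probe (14227 probes), and each array's 75th percentile was subtracted. Slides were read from the scan identifiers. Those 11280 circRNAs with the well above background mark on 3 or more arrays were fitted with limma 3.58.1 in R 4.3.3 (lmFit, eBayes, Benjamini-Hochberg), and 2 were left out for marked spots. The fit was run on simulated data with less spread than the arrays and no slide effect. That run checks the code and not the counts given here. No spot of a circRNA was saturated. Named are the members, the 2 probes with the largest difference of each kind just outside the rule, and the 1 most alike probe per member. The members and rules were chosen with earlier results of these data known. Where nothing names separate animals, spreads may be technical.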

Additional observations from a re-analysis of the deposited data

How the results depend on the processing

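The members kept their direction in all settings tried, as their choice favours, and nothing is read from it. Their number, 3, became 1 other probe with the laxer mark and 38 with MCT 2 as the only MCT array, a setting chosen after seeing the data, and ran from 3 to 5 with 1 array left out (5 without saline 1, MCT 1 or MCT 2, the 3 included each time). The log2 differences of ASCRPR000848, ASCRPR000882 and ASCRPR006482 (2.21, 2.18 and 1.95) were 0.36, 0.36 and 0.22 with normexp and quantile normalization and 0.77, 0.75 and 0.49 in the authors' values. Without scaling they were 1.41, 1.38 and 1.16, and with MCT 2 alone 1.45, 1.07 and 1.08. The bounds (1.53, 2.03 and 1.42) were 0.73, 1.23 and 0.62 without scaling, 0.77, 0.92 and 0.55 with MCT 2 alone, and 1.27, 1.82 and 1.14 with the highest unmarked signal as the limit, also chosen after seeing the data. With 1 array left out the differences ran from 1.73 to 2.61, 1.81 to 2.74 and 1.64 to 2.39, and the bounds from 1.20 to 1.91, 1.65 to 2.58 and 1.11 to 1.86. Signal over background limits all of these.

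Over all circRNAs (0 higher, 2 lower by limma), the slide as a block gave 12 and 119, slide 1 alone 71 and 113, no scaling 1 lower, and normexp, the authors' values and the filter on all 6 arrays 0 lower each. With 1 array left out 0 to 94 were higher, with 94 without MCT 2 and 4 without MCT 3, and 1 to 12 lower, with 12 without MCT 2 and 1 without saline 3. The probes without overlap fell from 858 to 165 without scaling. With the replicate block 18 were higher and 12 lower. The numbers did not pair the samples: deviations of same-numbered arrays correlated at -0.23, -0.36 and -0.45. The cause of these changes was not tested.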
